A study of Homo sapiens with 2 samples.

Results

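IL6, IL11, LIF, CSF1, CSF2, CSF3, EBI3, IL23A and IL32 were followed in RNA sequenced from TFK1, an established human cholangiocarcinoma cell line. These 9 genes encode cytokines of the IL-6 type, the colony-stimulating factors, subunits of the IL-12 family and IL-32. They were chosen by family, with the read counts of these same libraries already known, and each matched 1 row of the deposited tables, which hold 56638 genes after repeated rows were merged. The control cells carried a negative control shRNA (sh-NC), and the other cells carried a shRNA that lowers MBD2 (MBD2-sh1), a protein that binds methylated CpG dinucleotides. Both shRNAs were delivered by lentivirus from the plko.1 vector, and infected cells were selected with a drug, puromycin or G-418. The labels name the genotypes as negative control and knockdown of MBD2 and give no treatment to either. The name MBD2-sh1 is inferred from the sample code TSM1. The authors made more than 1 shRNA against MBD2 and do not say which was sequenced. Each condition has 1 library and 1 shRNA of 1 line, so no difference given here has a replicate check, and no p-value is given.

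IL-6, IL-11 and LIF bind receptors that share the subunit gp130 (encoded by IL6ST), which activates JAK kinases and STAT3. The colony-stimulating factors act on macrophages and granulocytes and their precursors through receptors that do not use gp130. EBI3 and the IL-23 subunit encoded by IL23A are chains that act only with a partner chain, and many of these mRNAs are short-lived and are induced in epithelium by NF-kB and AP-1.

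The MBD2-sh1 library held 14728814 counts and the sh-NC library 14467406. MBD2, the targeted gene, had 365 counts with MBD2-sh1 and 1013 with sh-NC, and its scaled count in MBD2-sh1 was 0.358 times that in sh-NC (95% counting interval 0.317 to 0.404). The 8 markers of biliary epithelium each had at least 10 summed counts, with a summed level of 4837 TPM (the deposited transcript level, scaled for gene length and depth) with MBD2-sh1 and 6047 TPM with sh-NC. Among them KRT19 had 119 and 70 counts and EPCAM 111 and 162. The 10 leukocyte markers summed to 17.5 and 16.6 TPM, most of it CD14 with 152 and 126 counts, while CD3E, MS4A1, CD68 and LYZ had 0 counts in both and PTPRC had 0 and 1. The 6 fibroblast markers summed to 0.492 and 0.702 TPM and the 4 endothelial markers to 0 and 0.0436 TPM.

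The sequence around the start of a gene was not itself used to choose the 9 genes. NF-kB and AP-1 are known to induce many genes of these families, so matches to their motifs are not independent of the choice. RefSeq promoters (GRCh38.p14, 250 bases before to 50 after the start) matched 6 of the 9 genes, with 2 starts for IL32, and LIF, CSF1 and CSF3 were not matched. Both strands were searched for the 10-base NF-kB motif and for motifs of AP-1 (TGANTCA), CRE (TGACGTCA), C/EBP (TTGCNNAA), STAT (TTCNNNGAA) and the TATA box, and matches stand in capitals. The promoters of IL6, IL32 and IL23A are shown because they hold the NF-kB motif, and those of IL11 and EBI3 because they hold the AP-1 motif. All are written 5′ to 3′ on the strand of the gene. The RefSeq starts of IL6, IL23A, EBI3 and IL32 (both) lie inside the longer spans that GENCODE 29 gives these genes, so their windows are not at the GENCODE starts.
IL6, plus strand, chr7:22726950-22727249: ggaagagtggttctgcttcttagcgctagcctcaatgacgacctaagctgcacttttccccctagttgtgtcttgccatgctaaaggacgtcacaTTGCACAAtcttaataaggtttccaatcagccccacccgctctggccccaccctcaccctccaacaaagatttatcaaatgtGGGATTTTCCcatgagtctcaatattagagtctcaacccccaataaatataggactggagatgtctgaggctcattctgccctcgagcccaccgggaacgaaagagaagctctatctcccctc
IL32, plus strand, first start, chr16:3065153-3065452: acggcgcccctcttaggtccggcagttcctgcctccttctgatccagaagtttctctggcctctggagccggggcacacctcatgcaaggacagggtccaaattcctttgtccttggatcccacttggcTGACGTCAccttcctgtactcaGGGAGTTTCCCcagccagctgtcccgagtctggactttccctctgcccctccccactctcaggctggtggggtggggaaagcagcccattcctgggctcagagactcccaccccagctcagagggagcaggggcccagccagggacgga
IL23A, plus strand, chr12:56338634-56338933: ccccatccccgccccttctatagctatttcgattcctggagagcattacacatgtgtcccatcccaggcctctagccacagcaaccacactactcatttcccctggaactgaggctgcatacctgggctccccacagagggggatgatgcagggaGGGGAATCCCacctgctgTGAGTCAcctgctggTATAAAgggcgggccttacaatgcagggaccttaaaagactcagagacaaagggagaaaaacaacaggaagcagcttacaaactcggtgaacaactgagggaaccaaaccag
IL11, minus strand, chr19:55370414-55370713: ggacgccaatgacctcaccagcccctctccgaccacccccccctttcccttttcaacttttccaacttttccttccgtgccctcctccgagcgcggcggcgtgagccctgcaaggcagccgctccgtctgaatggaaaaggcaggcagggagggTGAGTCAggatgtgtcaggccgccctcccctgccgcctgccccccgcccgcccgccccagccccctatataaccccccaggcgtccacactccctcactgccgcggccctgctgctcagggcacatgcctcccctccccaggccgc
EBI3, plus strand, chr19:4229273-4229572: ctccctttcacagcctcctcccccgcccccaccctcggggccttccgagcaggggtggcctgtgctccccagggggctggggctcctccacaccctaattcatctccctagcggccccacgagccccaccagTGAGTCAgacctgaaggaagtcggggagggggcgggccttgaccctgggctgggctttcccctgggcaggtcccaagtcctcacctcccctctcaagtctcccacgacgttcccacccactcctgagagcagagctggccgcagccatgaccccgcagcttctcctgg

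An NF-kB match lay from -73 to -64 in IL6, from -95 to -86 in IL23A (the same bases on both strands) and from -99 to -89 in IL32 (2 matches on opposite strands that overlap), counted from the gene start. Among all 35116 promoters of this length in the table, 5.91% held this motif. AP-1 matches lay at -96 in IL11, -118 in EBI3 and -77 in IL23A, and 7.71% of all promoters held one. IL6 also had a C/EBP match at -155 (10.5% of all promoters), IL32 a CRE match at -121 (1.85%), IL23A a TATA match (the letters TATAAA) at -62 (11.5%) and CSF2, not printed, a STAT match at -190 (7.66%). The second start of IL32 had no match to any of these letters. A match of letters is a description of the window and does not show that a factor was bound.

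**Figure D1:**
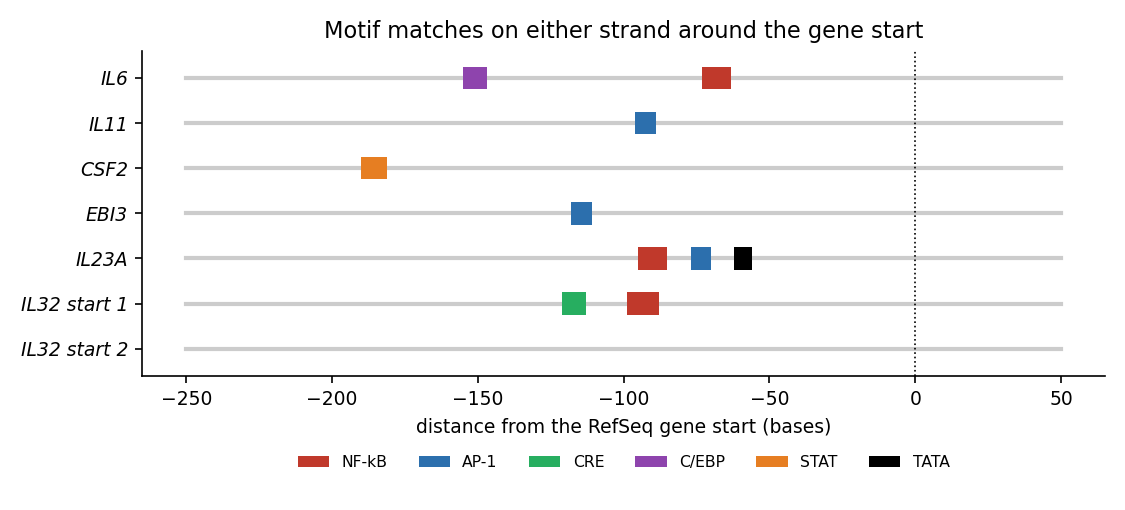
Matches to the motifs on either strand in the promoters of IL6, IL11, CSF2, EBI3, IL23A and both starts of IL32, by distance from the RefSeq gene start in bases. The NF-kB matches of IL6, IL23A and IL32 start between -99 and -73, and the AP-1 matches of IL11, EBI3 and IL23A between -118 and -77.

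CpG dinucleotides, which MBD2 binds when they are methylated, were below the median of all promoters in most of these windows, and none lay outside the quartiles. IL23A and CSF2 had 4 CpG, IL6 and each start of IL32 had 7, EBI3 had 11 and IL11 had 19, beside a median of 14 over all promoters (quartiles 4 and 28). Their methylation was not analyzed here.

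Of the 9 genes, 8 had at least 10 counts summed over both libraries, and CSF2, with 8, did not. The scaled counts of 7 of the 8 were higher in MBD2-sh1 by more than counting error, and those of IL23A were not. The share of all genes that differ by more than counting error was not computed, so this count has no background beside it. A gene with many counts passes this bar at a small difference, as LIF did at a ratio of 1.28. In 6 of the 8 the log2FC (MBD2-sh1 over sh-NC, after scaling by library size and adding 0.5 counts) was above 1, and in 0 it was below -1. Over all 17545 genes with at least 10 summed counts, 5.48% had a log2FC above 1 and 5.07% below -1. The share depended on depth: it was 13.4% above 1 among genes with 10 to 99 summed counts, where IL6, CSF3 and IL23A lie, 2.47% among those with 100 to fewer than 1000, where IL11, EBI3 and IL32 lie, and 1.06% among those with 1000 or more, where LIF and CSF1 lie. The median log2FC of the 8 genes was 2.52, against -0.0082 over all genes tested. Since the genes were picked with this contrast known, these counts describe them and test nothing. In bulk RNA, more cells that express a cytokine cannot be told apart from more mRNA per cell.

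**Figure D2:**
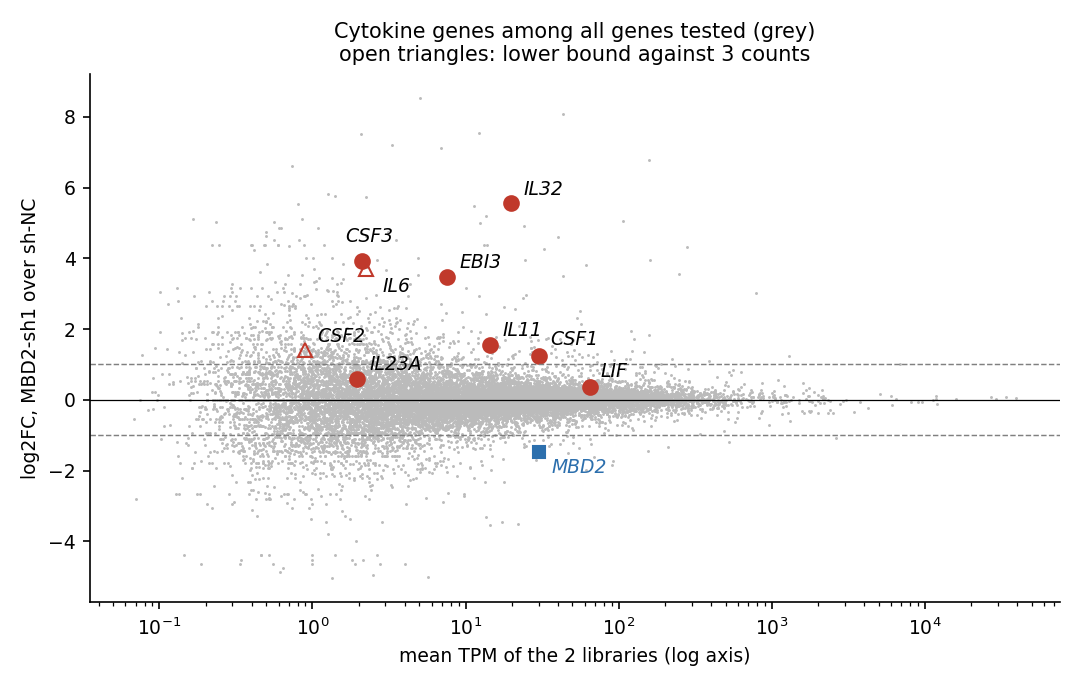
Log2FC of MBD2-sh1 over sh-NC against the mean TPM of both libraries (log axis), for all genes with at least 10 summed counts in grey, where genes with 0 counts in a library depend on the added 0.5 counts, and for the 9 cytokine genes in red and MBD2 in blue. Of the 7 cytokine genes with counts in both libraries, IL32 has the highest point value at 5.56 and LIF the lowest at 0.35. The counting interval of IL32 overlaps those of CSF3 and EBI3, and that of LIF overlaps that of IL23A. Some grey genes lie above IL32, and the open triangles of IL6 and CSF2 are lower bounds against 3 counts.

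Of IL6, IL11 and LIF, the scarcest gene, IL6, differed most and the most abundant, LIF, least. IL6 (ENSG00000136244, chromosome 7 from 22725884 to 22732002 in GRCh38, GENCODE 29) encodes the founding cytokine of the family and a driver of the acute-phase response. It had 39 counts with MBD2-sh1 and 0 with sh-NC, or 4.47 TPM against a library in which 3 counts would be 0.353 TPM. Against 3 counts in sh-NC, IL6 was at least 12.9-fold higher (3.69 on the log2 scale). This bound leaves out the counting error of its 39 reads, and the lower end of the 95% counting interval was below it, at 3.32 on the log2 scale. IL6 was read in the knockdown library alone, at a level near the middle of the genes read there (percentile 51.4 of 24524 genes with a TPM above 0). Its promoter is the one shown above with the NF-kB and C/EBP matches. AC073072.5, which overlaps IL6 on the opposite strand, had 0 counts in both libraries.

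IL11 (ENSG00000095752, chromosome 19 from 55364389 to 55370463) encodes a gp130 cytokine known for its part in tissue remodeling and fibrosis. It had 279 counts with MBD2-sh1 and 94 with sh-NC, or 21.4 and 7.39 TPM. It was 2.95-fold higher (counting interval 2.33 to 3.77), with a log2FC of 1.56. Unlike IL6, it was read in the control library, above 57.1% of the genes detected there.

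LIF (ENSG00000128342, chromosome 22 from 30240447 to 30246851), the leukemia inhibitory factor, was the most abundant of the 9 genes in both libraries. It had 1654 counts with MBD2-sh1 and 1288 with sh-NC, or 72.9 and 58.2 TPM. Its ratio was 1.28 (counting interval 1.19 to 1.37) and its log2FC 0.35, on the inner side of the line at 1. The difference exceeded counting error, but the spread between cultures was not measured. RP1-102K2.8, which overlaps LIF on the opposite strand, had 29 counts with MBD2-sh1 and 9 with sh-NC, and RP1-102K2.6, also opposite, had 7 and 1, and reads could be shared between them and LIF where counting ignored strand.

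**Figure D3:**
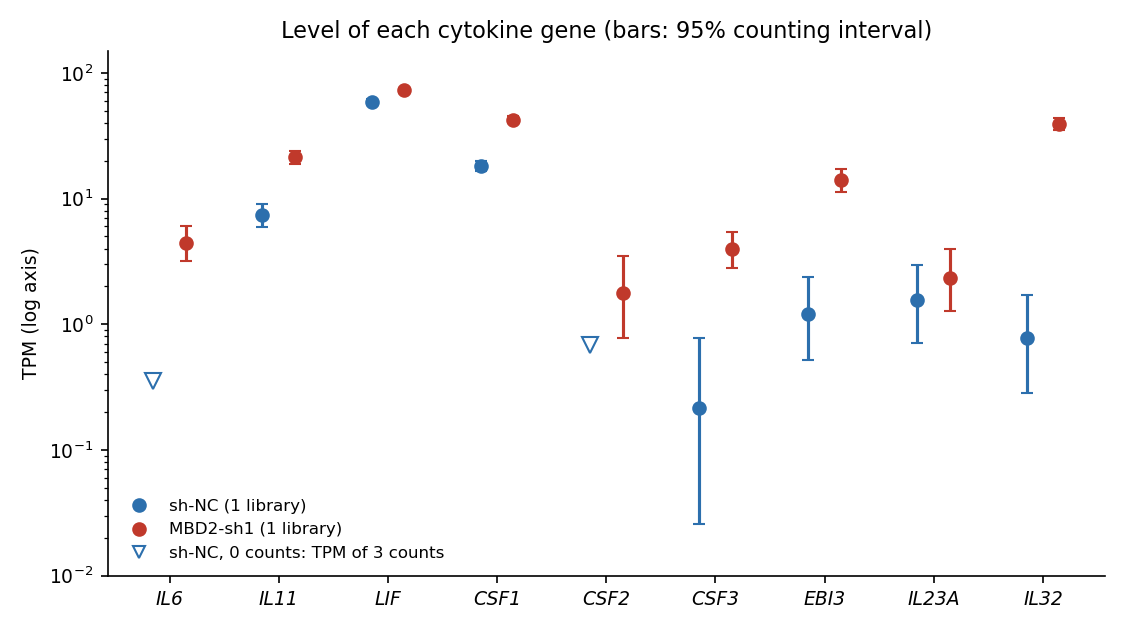
TPM of each cytokine gene (log axis) in the sh-NC library in blue and the MBD2-sh1 library in red, with 95% counting intervals as bars and open triangles at the TPM of 3 counts where the count was 0. The red points of IL32, EBI3 and CSF3 lie clear of the blue bars, while the bars of IL23A overlap.

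Of the colony-stimulating factors, CSF1 was well read in both libraries, while CSF3 and CSF2 were barely read or unread in sh-NC. CSF1 (ENSG00000184371, chromosome 1 from 109910242 to 109930992) encodes the macrophage growth and survival factor that binds the receptor CSF1R. It had 1024 counts with MBD2-sh1 and 428 with sh-NC, or 42.5 and 18.2 TPM. It was 2.38-fold higher (counting interval 2.12 to 2.67), a log2FC of 1.25 whose interval, from 1.09 to 1.42, lay above 1.

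CSF3 (ENSG00000108342, chromosome 17 from 40015361 to 40017813) encodes the granulocyte colony-stimulating factor, which drives neutrophil production. It had 38 counts with MBD2-sh1 and 2 with sh-NC, or 3.97 and 0.215 TPM. The ratio was 18.9, with a counting interval from 4.88 to 162 because the control library held only 2 reads, so its size cannot be ranked against that of IL6. CSF2 (ENSG00000164400, chromosome 5 from 132073790 to 132076170) encodes the granulocyte-macrophage colony-stimulating factor. It had 8 counts with MBD2-sh1 and 0 with sh-NC, or 1.79 TPM in MBD2-sh1 where 3 counts in sh-NC would be 0.687 TPM. Against 3 counts, CSF2 was at least 2.65-fold higher, with a lower interval end of 1.70-fold, and it stayed out of the counts of genes past the line because of its depth.

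Of the IL-12 family subunits, EBI3 was higher in MBD2-sh1 by more than counting error, and IL23A was not. EBI3 (ENSG00000105246, chromosome 19 from 4229498 to 4237531) encodes a soluble protein related to cytokine receptors, which pairs with the product of IL27 to form IL-27 and with that of IL12A to form IL-35. It had 95 counts with MBD2-sh1 and 8 with sh-NC, or 14.0 and 1.21 TPM. EBI3 was 11.8-fold higher (counting interval 5.75 to 28.1), with a log2FC of 3.48. IL27 had 0 counts in both libraries, which allows up to 3 counts in each. IL12A had 30 counts with MBD2-sh1 and 4 with sh-NC, or 2.75 and 0.376 TPM, a ratio of 7.45 (counting interval 2.63 to 29.1). Of the partners of EBI3, IL12A was thus read and higher in MBD2-sh1 and IL27 was not read.

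IL23A (ENSG00000110944, chromosome 12 from 56334174 to 56340410) encodes the p19 chain, which forms IL-23 with the product of IL12B. It had 14 counts with MBD2-sh1 and 9 with sh-NC, or 2.35 and 1.55 TPM. Its ratio was 1.55 with a counting interval from 0.623 to 4.05, so no difference was detectable at this depth. IL12B had 1 count in each library. The window before IL23A held the NF-kB, AP-1 and TATA matches, the most motif kinds of the 7 windows.

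IL32 (ENSG00000008517, chromosome 16 from 3065297 to 3082192) encodes an inflammatory cytokine that is unrelated in sequence to the other families and is made by epithelial and immune cells. It had 309 counts with MBD2-sh1 and 6 with sh-NC, or 39.1 and 0.780 TPM. The ratio was 51.2 (counting interval 23.2 to 141) and the log2FC 5.56, the highest point value among the 7 cytokine genes that had a count in both libraries. The counting intervals of CSF3 and EBI3 overlapped that of IL32, so its rank above these genes is not fixed by the counts. IL32 stood at percentile 26.6 of the detected genes in sh-NC and at percentile 83.4 in MBD2-sh1. GENCODE 29 gives IL32 35 transcripts, and the deposited counts do not divide them.

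**Figure D4:**
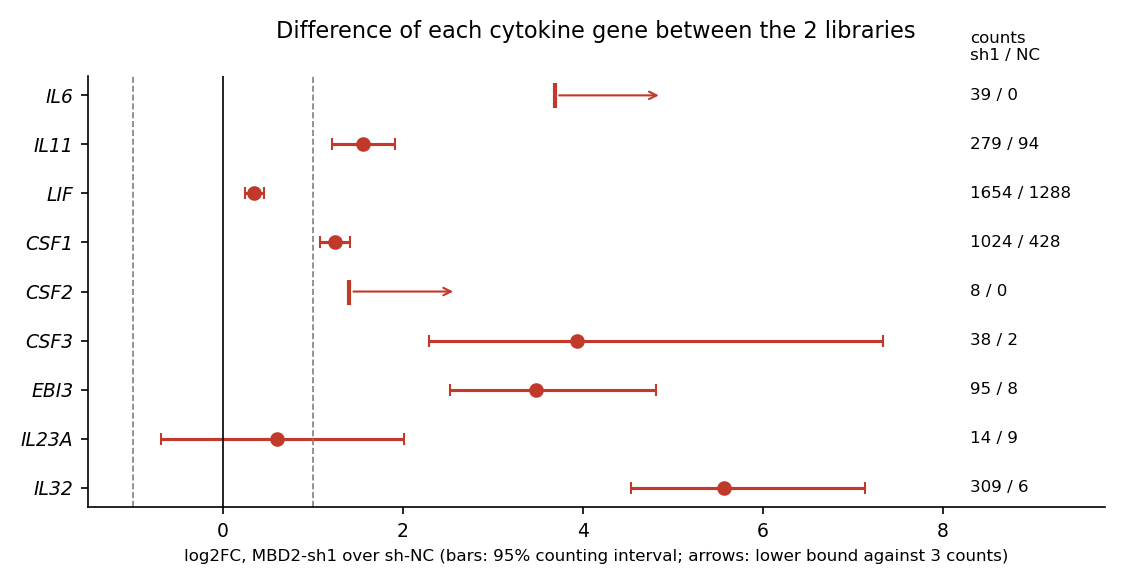
Log2FC of MBD2-sh1 over sh-NC for each cytokine gene with its 95% counting interval, and an arrow from the lower bound against 3 counts for IL6 and CSF2, with the counts in MBD2-sh1 and sh-NC at the right and dashed lines at -1 and 1. The intervals of IL11, CSF1, CSF3, EBI3 and IL32 lie above 1, that of LIF lies between 0 and 1, and that of IL23A spans 0.

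The order of the levels differed between the libraries. Per length, the order in sh-NC ran from LIF at 58.2 TPM through CSF1 at 18.2 and IL11 at 7.39 to IL23A at 1.55, EBI3 at 1.21, IL32 at 0.780 and CSF3 at 0.215, with IL6 and CSF2 unread. There the counting intervals of LIF, CSF1 and IL11 were apart from each other and from the rest, while those of each neighboring pair from IL23A down to CSF3 overlapped. In MBD2-sh1 the order was LIF at 72.9, CSF1 at 42.5, IL32 at 39.1, IL11 at 21.4, EBI3 at 14.0, IL6 at 4.47, CSF3 at 3.97, IL23A at 2.35 and CSF2 at 1.79 TPM. In this library the intervals of CSF1 and IL32 overlapped, as did those of each neighboring pair from IL6 down to CSF2. The 9 genes summed to 203 TPM with MBD2-sh1 and 87.6 TPM with sh-NC. LIF made 66.5% of this sum in sh-NC and 36.0% in MBD2-sh1, whereas IL32 made 0.890% and 19.3%.

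Most other ligands of these families were not read or had too few reads to pass the filter. Of the 5 other IL-6 family ligands, CLCF1 and CNTF had at least 10 summed counts and neither lay past a log2FC of 1 or -1. CLCF1, whose product acts on the CNTF receptor, had 252 counts with MBD2-sh1 and 238 with sh-NC, and its ratio of 1.05 had an interval from 0.878 to 1.26. OSM, the gene of oncostatin M, had 0 and 3 counts. Of 7 further colony-stimulating and growth cytokines, KITLG alone passed the filter, with 657 and 833 counts and a log2FC of -0.35 (interval -0.50 to -0.20), lower in MBD2-sh1 by more than counting error, and IL34, which encodes the other ligand of CSF1R, had 1 count in each.

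TFK1 cells carried mRNA for most receptor chains of the IL-6 family and little for those of the colony-stimulating factors. Of 14 receptor genes, 7 passed the filter, 1 had a log2FC above 1 and 0 below -1, with a median of 0.26. Beside this count and those of the lists below, the shares over all genes tested were 5.48% above 1 and 5.07% below -1. The share above 1 ran from 1.06% to 13.4% by depth, and nothing was tested. IL6ST, the gene of gp130, had 4999 counts with MBD2-sh1 and 5179 with sh-NC, or 96.5 and 103 TPM. The specific chains IL6R (log2FC -0.16), IL11RA (0.26) and LIFR (-0.015) and the IL-27 receptor gene IL27RA (0.34) had counting intervals that spanned 0. CNTFR, the receptor chain of the same family that CNTF binds, had 0 and 1 counts. OSMR, the oncostatin M receptor, had 4071 and 2794 counts, a log2FC of 0.53. CSF2RA, which encodes the alpha chain of the CSF2 receptor, had 67 and 29 counts, a log2FC of 1.19 (interval 0.55 to 1.88). It lies in a region shared by the X and Y chromosomes, so the counting of its reads is uncertain. The signaling chain CSF2RB had 0 counts in both libraries, CSF3R had 0 and 1, CSF1R had 5 and 3, and IL23R and IL12RB1 had 0 in both.

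The signaling genes downstream were read in both libraries, and most differed little. Of the 14 genes of JAK kinases, STAT factors and their feedback inhibitors, 2 had a log2FC above 1 and 0 below -1, with a median of 0.12. STAT3, the main STAT factor below gp130, had 3871 counts with MBD2-sh1 and 3237 with sh-NC, a log2FC of 0.25 (interval 0.18 to 0.32). SOCS3, its feedback inhibitor and target, had 353 and 250 counts, a log2FC of 0.49 (interval 0.25 to 0.73). STAT5A, which acts below the colony-stimulating factor receptors among others, had 117 and 23 counts, or 4.76 and 0.960 TPM, and a log2FC of 2.31 (interval 1.68 to 3.05). SOCS1, the other gene past the line, had 10 and 4 counts and an interval from -0.48 to 3.44.

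Genes that gp130 and STAT3 are known to induce went in both directions. Of 15 such genes, 11 passed the filter, 3 had a log2FC above 1 and 3 below -1, with a median of 0.21. The fibrinogen chains were lower in MBD2-sh1. FGA had 628 counts with MBD2-sh1 and 1454 with sh-NC (log2FC -1.22), FGB had 473 and 1569 (log2FC -1.74) and FGG had 281 and 791 (interval from -1.70 to -1.30), each with an interval below -1. The serum amyloid genes were higher, SAA1 with 94 and 0 counts, at least 31.1-fold, and SAA2 with 26 and 0 counts, at least 8.61-fold, both against 3 counts, with lower ends of the counting intervals at 24.8-fold and 6.52-fold. SAA1 and SAA2 are near-identical copies, so the division of reads between them is uncertain. LBP, the gene of the lipopolysaccharide binding protein, had 23 and 9 counts and an interval from 0.18 to 2.64. BCL3, PIM1, JUNB, CEBPB and TIMP1 lay between -0.32 and 0.56.

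Genes of transcription factors that act on cytokine promoters, and of their inhibitors, had a median log2FC of 1.17. All 11 passed the filter, 6 had a log2FC above 1 and 0 below -1, and these were also known from earlier results when the list was written. RELB, a subunit of the non-canonical NF-kB dimer, had 473 counts with MBD2-sh1 and 79 with sh-NC, a log2FC of 2.57 (interval 2.23 to 2.94). NFKB2, which encodes its partner, had 1302 and 429 (log2FC 1.59), and NFKB1 had 1071 and 473 (log2FC 1.17). NFKBIA and NFKBIZ, of which the first encodes the inhibitor of NF-kB and the second a nuclear cofactor that IL6 induction requires, lay at 1.36 and 1.49. The AP-1 gene FOSL1 had 354 and 144 counts (log2FC 1.29), while RELA lay at 0.27, REL at 0.32, JUN at 0.73, IRF1 at 0.80 and ATF3 at -0.42.

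Factors that control the decay of cytokine mRNA were mostly inside the line. Of 9 genes, all passed the filter, 1 had a log2FC above 1 and 0 below -1, with a median of 0.21. ZC3H12A encodes the nuclease Regnase-1, which cuts the IL6 mRNA. It had 968 counts with MBD2-sh1 and 309 with sh-NC, a log2FC of 1.64 (interval 1.45 to 1.83). ZFP36, the gene of tristetraprolin, which directs AU-rich mRNAs to decay, had 301 and 302 counts. Its relatives differed in opposite directions, with ZFP36L1 at 0.76 and ZFP36L2 at -0.78.

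The nearest genes with enough reads on each side of the cytokine genes lay within a log2FC of 1 and -1 with 1 exception. By the positions in the deposited tables, the nearest gene with at least 10 summed counts was taken on each side of every cytokine gene. Not all of these genes are adjacent. Their distances ran from 1.19 kb (STAT2 from IL23A) to 277 kb (FNIP1 from CSF2), with EEF1A1P6 214 kb from IL6. The 18 genes had a median log2FC of 0.055, with 0 above 1 and 1 below -1. Over all genes tested the shares were 5.48% and 5.07%, and 18 genes are too few to be told apart from these. MED24, 1.28 kb from CSF3, had 1121 counts with MBD2-sh1 and 1024 with sh-NC (log2FC 0.12). PSMD3 on the other side of CSF3 lay at 0.14. The neighbors of EBI3 were ANKRD24 at 0.83, with 29 and 16 counts, and CCDC94 at 0.20. STAT2 and PAN2, on either side of IL23A, lay at -0.21 and -0.33. ZNF205 and MMP25 beside IL32 lay at 0.45 and -0.44, EEF1A1P6 (a pseudogene whose reads could come from EEF1A1) and TOMM7 beside IL6 at 0.23 and -0.043, and AHCYL1 and EPS8L3 beside CSF1 at -0.10 and 0.32. P4HA2 and FNIP1 beside CSF2 lay at 0.32 and -0.43, MTMR3 and GATSL3 beside LIF at -0.011 and 0.91, and TMEM238 beside IL11 at -0.28. COX6B2, on the other side of IL11, was the gene below -1, with 6 and 16 counts and an interval from -3.07 to 0.0040. The highest value of these 18, 0.91 for GATSL3, came from 8 and 4 counts. Genes that overlap a cytokine gene were not among the 18, and of these RP1-102K2.8 on LIF had a log2FC of 1.63 (interval 0.56 to 2.94) from 29 and 9 counts.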

How the data were processed

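RNA of 1 MBD2-sh1 and 1 sh-NC library of TFK1 cells was analyzed. The authors deposited raw counts of reads per gene and a table of TPM. The submitters' processing notes name fastp, HISAT2 2.1.0, featureCounts, DESeq 1.18.1 and GRCh38.p13 without roles. The strandedness and the annotation release are not given in the sources used here, and the positions in the tables differ from those of GENCODE 29 (GRCh38) for all 9 cytokine genes, so the latter are printed. Of the table lines, 46 without a gene were dropped, and 1 row per symbol and value was kept, since nearly all rows that share a symbol repeat its values.

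Counts were scaled with TMM factors (edgeR 4.0.16, R 4.3.3). Log2FC uses a prior of 0.5 counts, and the fold is the scaled ratio without it. Intervals (95%) are exact Clopper-Pearson for ratios and exact Poisson for TPM (scipy 1.17.1) and cover counting error only. Against 0 counts, the fold was computed against 3 counts per library. Genes with at least 10 summed counts were called past a log2FC of 1 or -1, which is a size and not a test. The calculation was checked on simulated counts. The alternatives were DESeq2 1.42.0 size factors, total counts, upper-quartile factors, log2 of TPM plus 0.1 or 1, prior counts of 2 and 0.1, filters at 1 and 100 counts and a line at 2.

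The cytokine genes and all lists were chosen with earlier results of these data known. Named genes are the 9 cytokine genes, MBD2, list genes past the line with at least 50 counts in the higher library, receptors with at least 10 summed counts, examples with at least 1000 counts and the nearest expressed neighbors. Other list genes, partner chains, markers and overlapping genes were named after their values were seen. Proteins were not compared here.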

Additional observations from a re-analysis of the deposited data

How the results depend on the processing

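LIF, IL11, CSF1, CSF3, EBI3 and IL32 were higher in MBD2-sh1 under all 7 alternatives of scaling, unit and prior count, IL23A, whose counting interval spans 0, had a positive log2FC under each, and the number above a log2FC of 1 was 6 under each of these. The log2FC ranged from 0.32 to 0.36 for LIF, 1.42 to 1.56 for IL11, 2.76 to 3.54 for EBI3, 0.39 to 0.62 for IL23A, 2.03 to 4.17 for CSF3 and 4.50 to 5.65 for IL32, and that of CSF1 reached 1.26 at most and was above 1 under each. With log2 of TPM plus 1, which draws low genes towards 0, CSF3 moved to 2.03, IL32 to 4.50 and the median of the cytokine genes from 2.52 to 1.72. Without a filter (at least 1 count), which adds CSF2, the median was 3.48 and 7 genes lay above 1, and with at least 100 counts it was 1.56 over the 5 genes left, of which 4 lay above 1. At a line of 2, 4 genes lay above it. Over all genes, 961 above 1 and 890 below -1 became 374 and 340 with TPM plus 1, 4523 and 4303 with at least 1 count, 213 and 127 with at least 100 counts and 256 and 155 at a line of 2, the last 3 by construction. No fold is given for IL6 and CSF2 from the TPM, since they are listed at 0 in sh-NC, but IL6 enters the counts and medians above with its log2 of TPM plus 0.1 or 1. Of the pathway lists, 18 of 64 genes above 1 and 4 below -1 became 15 and 3 with TPM plus 1. No paired analysis was possible because there was a single library on each side. IL6, CSF2, CSF3, EBI3, IL23A and IL32 had 9 counts or fewer in sh-NC, which limits the precision of their ratios, and no value measures the variation between cultures.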

Other observations

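Beyond these families, most interleukin genes were not read. Of 29 other interleukin and short-chain cytokine genes, 15 had 0 counts in both libraries, 8 passed the filter, 4 had a log2FC above 1 and 1 below -1. LTB, which encodes lymphotoxin beta, had 73 counts with MBD2-sh1 and 4 with sh-NC, a ratio of 18.1 (counting interval 6.79 to 68.3). IL1A had 40 and 7 counts, a log2FC of 2.42, and IL1B had 24 and 1, a ratio of 23.9 with a counting interval from 3.89 to 981. TNF had 27 and 0 counts, at least 8.94-fold higher against 3 counts, with a lower interval end of 6.79-fold. IL18, a cytokine that epithelium holds in store as a precursor, had 951 and 861 counts, or 98.0 and 91.0 TPM, above LIF in both libraries, and a log2FC of 0.13. IL15 (287 and 339 counts) and IL17D (58 and 61) lay at -0.25 and -0.081, and IL7 had 5 and 13 counts with an interval from -3.23 to 0.19. TSLP and IL33, known as epithelial alarm cytokines, had 0 counts in MBD2-sh1 and 2 and 1 in sh-NC.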
